A study of Mus musculus with 9 samples.

Results

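The 10 mouse genes described here, called the family below, are Il27ra, Il6st, Il6ra, Lifr, Il12rb1, Il12rb2, Crlf2, Clcf1, Ebi3 and Lif. Apart from Crlf2, a receptor chain for the cytokine TSLP, they encode receptors and ligands of the interleukin-27, interleukin-6 and interleukin-12 cytokine families. All 10 were chosen by symbol, and each matched a single Ensembl ID among the 53715 in the count table. The RNA came from thymocytes of C57BL/6 mice aged 6 to 8 weeks, gated by FACS as positive for TCRβ and CD69 as well as CD24, CD4 and CD8, the surface phenotype of double-positive cells that have received a T cell receptor signal. The SRSF1KO group held 2 libraries from mice labelled Srsf1fl/flLckcre/+, in which a Cre recombinase driven by the Lck promoter acts on floxed alleles of Srsf1 in cells of the T lineage, and the control group held 3 libraries labelled WT, with no further allele given. Srsf1 encodes a serine/arginine-rich protein that binds RNA and takes part in pre-mRNA splicing. The labels do not say whether replicates came from separate animals, so p-values rest on the spread between these 5 libraries, which edgeR partly shares across genes. That spread may in part be technical.

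Cytokines of these families act through receptors with paired chains, many of which share the signalling subunit gp130, the product of Il6st. Binding of the ligand activates JAK kinases on the receptor chains, and these phosphorylate STAT transcription factors, among them STAT3 for IL-6 and LIF and STAT4 for IL-12. SOCS proteins are induced by STATs and restrain the same receptors. In T cells IL-27 and IL-6 shape differentiation and survival, and their ligands come largely from other cells.

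The libraries held between 36026006 and 38985285 counts each, and no pair of them agreed within sampling noise (chi-square per degree of freedom 40.1 to 116.6). Srsf1 stood at 42.6 and 30.9 CPM (counts brought to an equal library total after TMM normalisation) in the SRSF1KO libraries, against 96.9 to 122.7 CPM in the WT libraries, a log2 fold change of −1.55 ± 0.19 (SE, edgeR adjusted p = 0.0483). Summed levels of the 11 gate and T lineage genes overlapped between the groups, at 11933.9 to 13638.1 CPM in SRSF1KO and 12170.1 to 13387.5 CPM in WT. The sum joins genes with log2 fold changes of either sign, 7 negative and 4 positive, where 50.6% of all genes tested were negative. In 3 of the 11 both SRSF1KO libraries lay below every WT library, as in 17.8% of all genes tested. In 1, Cd4, both lay above, as in 15.2%. Cd4, named after its values were seen, stood at 1229.1 and 1118.3 CPM in SRSF1KO and 881.0, 767.1 and 932.2 CPM in WT. None of the 11 passed with edgeR (Cd4 adjusted p = 0.136), and DESeq2 called Cd4 higher (adjusted p = 0.00475). SRSF1KO replicate 1 and WT replicate 2 showed a male pattern of Y-linked transcripts and the other 3 libraries a female pattern.

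Il27ra and Clcf1 fell in SRSF1KO thymocytes, to about 0.411 and 0.241 of their WT levels, while the shared subunit gene Il6st stood at the same mean in both groups. Of the 10 genes, 9 passed the filter on low counts. Among these 9, edgeR's quasi-likelihood test called 2 lower and 0 higher at an adjusted p under 0.05. Over all 17351 genes tested, 0.213% were called lower and 0.0519% higher. At an unadjusted p under 0.05 the counts were 2 lower and 0 higher, where 8.45% of all genes tested were lower and 5.90% higher. DESeq2 also called 2 lower and 0 higher, where it called 3.87% of all genes with an adjusted p lower and 2.34% higher. The median log2 fold change of the 9 genes was −0.36, against −0.01 over all genes tested. In 4 of them both SRSF1KO libraries lay below every WT library, as in 17.8% of all genes tested, and in 0 both lay above, as in 15.2%. In such bulk measurements of sorted cells, fewer cells of a type and less RNA per cell cannot be told apart.

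**Figure D1:**
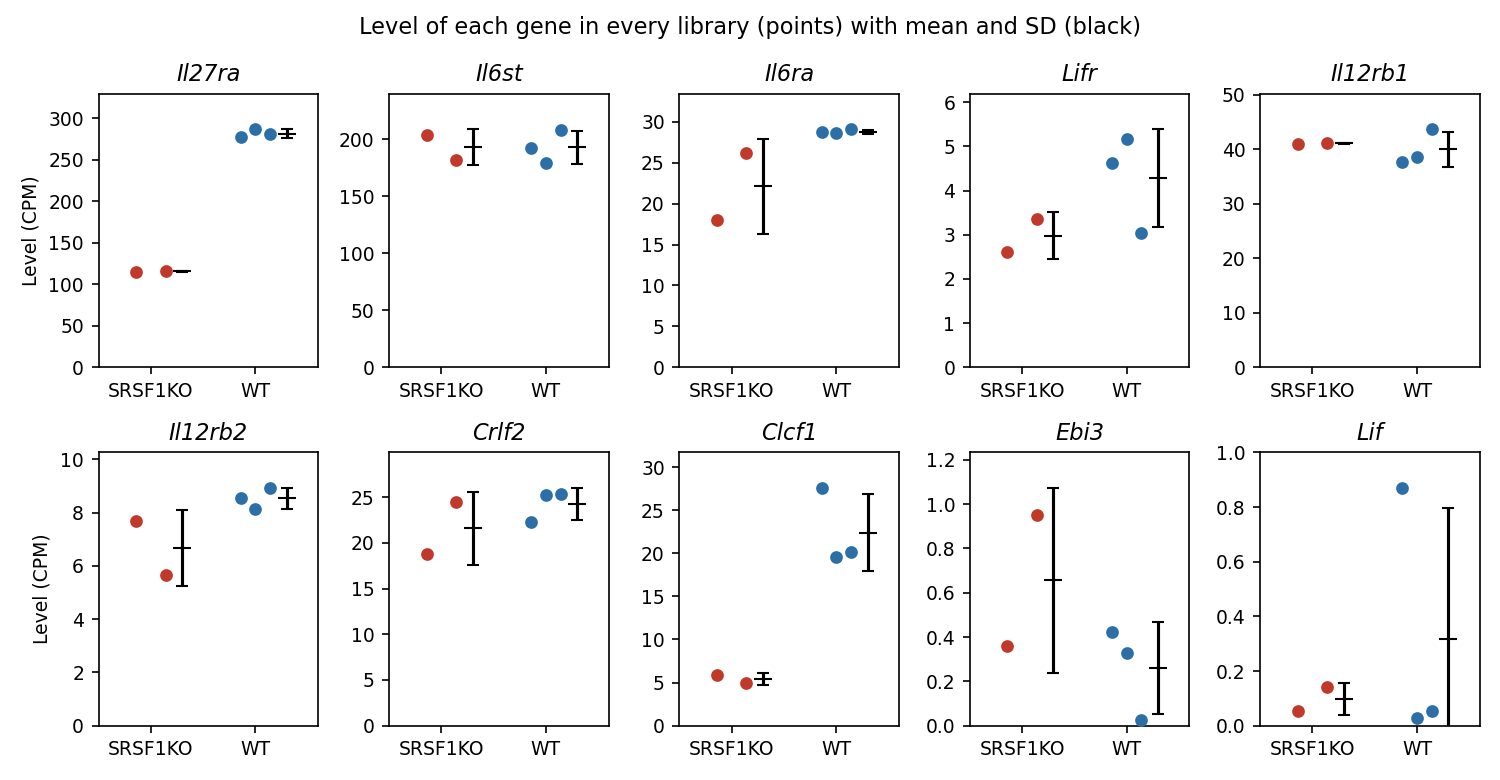
Level of each of the 10 genes in CPM (y axis, from 0, scaled per gene) in the SRSF1KO libraries (red, n = 2) and WT libraries (blue, n = 3), with the mean and SD in black; for Lif the lower WT error bar is cut at 0. For Il27ra both SRSF1KO points lie near 116 CPM and the WT points between 277.3 and 287.0 CPM, and the Il6st points of both groups overlap.

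Il27ra (ENSMUSG00000005465.9, chromosome 8, 84030286 to 84042600, GRCm38), which encodes the specific chain that pairs with gp130 in the IL-27 receptor, stood at 115.3 and 116.4 CPM in SRSF1KO replicates 1 and 2. The WT libraries held 277.3, 287.0 and 281.2 CPM. The groups did not overlap, and the libraries within each group were nearly alike, on raw counts of 4156 and 4159 in SRSF1KO and 10445 to 10831 in WT. The means were 115.8 ± 0.751 CPM in SRSF1KO (SD, n = 2) and 281.8 ± 4.9 CPM in WT (SD, n = 3). The log2 fold change was −1.28 ± 0.09 (SE), with an adjusted p of 0.0083 by edgeR, the third smallest p of all genes tested. Its pooled SD within groups was 0.0211 on the log2 CPM scale, against a median of 0.13 over 1870 tested genes whose mean level was within 2-fold of it, and 0.588% of those genes had a smaller one. Between the libraries of the male pattern, 1 of each group, the log2 difference was −1.32, and between those of the female pattern it was −1.26. The adjusted p was 0.0701, 0.0735 and 0.0895 without WT replicate 1, 2 or 3, with the log2 fold change between −1.28 and −1.27. In these fits 0 genes of all tested were called. In the RefSeq annotation 386 bases at the edge of Il27ra overlap Palm3, which had 43 to 146 counts in every library and a log2 fold change of −0.53 ± 0.59 (adjusted p = 0.773).

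Il6st (ENSMUSG00000021756.12, chromosome 13, 112464070 to 112506860) encodes gp130, the signalling chain of the receptors for IL-27, IL-6, LIF and CLCF1. It stood at 204.0 and 181.7 CPM in SRSF1KO and at 192.0, 179.1 and 207.7 CPM in WT. The groups overlapped fully, with means of 192.9 ± 15.8 CPM in SRSF1KO and 192.9 ± 14.3 CPM in WT (SD, n = 2 and n = 3). Its log2 fold change was 0.00 ± 0.11 (SE, edgeR), which took either sign among the alternative settings. The ratio of Il27ra to Il6st counts, which needs no library scaling, was 0.565 and 0.640 in SRSF1KO and 1.44, 1.6 and 1.35 in WT. The ratio also holds the lengths of both transcripts, so only its difference between groups was read. That difference was −1.28 on the log2 scale, with group SDs of 0.127 in SRSF1KO and 0.123 in WT. The exact two-sided permutation p was 0.2, the smallest that 2 against 3 libraries can give, and 0.3 after Benjamini-Hochberg adjustment over 3 receptor pairs.

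Il6ra (ENSMUSG00000027947.11, chromosome 3, 89869324 to 89913196), the chain that binds IL-6 itself, stood at 18.0 and 26.2 CPM in SRSF1KO, against 28.8, 28.6 and 29.1 CPM in WT. Both SRSF1KO libraries lay below all WT libraries, and SRSF1KO replicate 2 was nearer to the WT libraries than to replicate 1. The test was not passed (log2 fold change −0.38 ± 0.22 SE, edgeR adjusted p = 0.488), and the value was −0.14 without SRSF1KO replicate 1 and −0.66 without SRSF1KO replicate 2.

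Lifr (ENSMUSG00000054263.12, chromosome 15, 7090610 to 7197489), the chain that joins gp130 in the receptors for LIF and CLCF1, was low in both groups. It stood at 2.61 and 3.36 CPM in SRSF1KO and at 4.62, 5.17 and 3.04 CPM in WT, on 94 to 188 counts per library, and the groups overlapped. Its log2 fold change was −0.52 ± 0.45 (SE, edgeR adjusted p = 0.685). Relative to Il6st counts, Lifr differed by −0.495 on the log2 scale (exact permutation p = 0.4, adjusted over the 3 pairs 0.4).

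The chains of the IL-12 receptor were both detected. Il12rb1 (ENSMUSG00000000791.9, chromosome 8, 70808360 to 70823542), the subunit shared by the IL-12 and IL-23 receptors, stood at 41.0 and 41.2 CPM in SRSF1KO and at 37.7, 38.6 and 43.7 CPM in WT. The SRSF1KO libraries lay inside the WT range, with a log2 fold change of 0.04 ± 0.16 (SE, edgeR adjusted p = 0.957). Il12rb2 (ENSMUSG00000018341.12, chromosome 6, 67285986 to 67376293), the signalling subunit through which IL-12 activates STAT4, stood at 7.69 and 5.65 CPM in SRSF1KO, against 8.56, 8.13 and 8.93 CPM in WT. Both SRSF1KO values lay under the WT range, but the gene did not pass (log2 fold change −0.36 ± 0.31 SE, edgeR adjusted p = 0.679). The log2 ratio of Il12rb2 to Il12rb1 counts was lower by 0.415 in SRSF1KO (difference −0.415, exact permutation p = 0.2, adjusted over the 3 pairs 0.3). Il12rb2 had 277 and 202 counts in SRSF1KO and 324, 296 and 344 in WT. It shares 3317 bases with the annotated span of Serbp1, which had 13190 and 13897 counts in SRSF1KO and 16647, 14990 and 16425 in WT. The log2 fold change of Serbp1 was −0.17 ± 0.09 (SE, edgeR adjusted p = 0.419). The strand setting is not given, so reads of these genes may not be told apart.

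STATs bind the palindrome TTCNNNGAA, which reads the same on both strands. In the RefSeq promoter table of GRCm38.p6, 7 of the 10 genes had a promoter, from 250 bases before to 50 after the start used there. For Il12rb2, Lifr and Crlf2 that start lay inside the gene span given here, not at its edge. Il12rb2 alone of these 7 held the motif, as did 8.47% of 27025 promoters searched, the first listed for each gene. Its promoter is shown because it is the single match among these 7. Il27ra, Clcf1 and Il12rb1 had no promoter in that table, so whether theirs hold the motif was not tested. The match, in capitals, begins 123 bases before the start used in that table, on the minus strand of chr6:67376139-67376438.
Il12rb2: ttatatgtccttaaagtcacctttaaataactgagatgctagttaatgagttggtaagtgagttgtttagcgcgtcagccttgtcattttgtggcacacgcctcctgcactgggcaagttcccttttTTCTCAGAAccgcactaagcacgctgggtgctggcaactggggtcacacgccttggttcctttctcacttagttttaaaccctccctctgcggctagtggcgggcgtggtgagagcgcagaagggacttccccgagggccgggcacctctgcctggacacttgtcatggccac
A match is a description of these letters, and the count table does not measure binding.

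Crlf2 (ENSMUSG00000033467.12, chromosome 5, 109554709 to 109559128) encodes the chain that binds TSLP and pairs with the IL-7 receptor α chain. It stood at 18.8 and 24.5 CPM in SRSF1KO and at 22.3, 25.2 and 25.4 CPM in WT. SRSF1KO replicate 1 was below all WT libraries and replicate 2 lay among them. The log2 fold change was −0.17 ± 0.21 (SE, edgeR adjusted p = 0.807), and without SRSF1KO replicate 1 it was 0.01. Its partner gene Il7r stood at 82.8 and 191.7 CPM in SRSF1KO, on either side of the WT libraries at 133.8, 162.3 and 135.2 CPM, with a log2 fold change of −0.07 ± 0.31 (SE, edgeR adjusted p = 0.966).

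Of the 3 ligand genes among the 10, Clcf1 was the single one above 1 CPM in any library. Clcf1 (ENSMUSG00000040663.8, chromosome 19, 4214238 to 4223505) encodes cardiotrophin-like cytokine factor 1, which signals through gp130 and LIFR after binding the CNTF receptor α chain. It stood at 5.88 and 4.92 CPM in SRSF1KO, against 27.6, 19.6 and 20.1 CPM in WT, on 176 to 212 counts in SRSF1KO and 713 to 1047 in WT. The groups did not overlap, and WT replicate 1 was the highest library. The means were 5.40 ± 0.677 CPM in SRSF1KO (SD, n = 2) and 22.4 ± 4.51 CPM in WT (SD, n = 3). The log2 fold change was −2.05 ± 0.28 (SE), with an adjusted p of 0.0483 by edgeR, close to the threshold. Without WT replicate 1, 2 or 3 the adjusted p was 0.211, 0.172 and 0.220, and 0 genes of all tested were called in these fits. The call was lost when any single library was left out, with a log2 fold change between −2.19 and −1.87. It was also lost with a term for the sex pattern (adjusted p = 0.118), and narrowly with upper-quartile scaling (0.0502), DESeq2’s size factors (0.0515) or limma-voom (0.0507). The log2 difference was −1.73 between the libraries of the male pattern and −2.25 between those of the female pattern. A pair of long noncoding RNA models overlap Clcf1 in the RefSeq annotation, and the strand setting of the counting is not given in the sources used here.

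Ebi3 (ENSMUSG00000003206.6, chromosome 17, 55952623 to 55957022), which encodes the soluble receptor-like chain of IL-27, was near the limit of detection. It had 13 and 34 counts in SRSF1KO (0.361 and 0.951 CPM) and 16, 12 and 1 counts in WT (0.423, 0.330 and 0.026 CPM). The groups overlapped, and the gene did not pass (log2 fold change 1.33 ± 1.38 SE, edgeR adjusted p = 0.752). It shares 3611 bases with the annotated span of Zfp119b, which had 130 and 174 counts in SRSF1KO and 60, 70 and 42 counts in WT (log2 fold change 1.47, edgeR adjusted p = 0.264), so reads of these genes may not be told apart.

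Lif (ENSMUSG00000034394.14, chromosome 11, 4257568 to 4272514), the gene of leukaemia inhibitory factor, did not pass the filter on low counts. It had 2 and 5 counts in SRSF1KO and 33, 1 and 2 counts in WT. WT replicate 1 held 91.7% of the WT counts. The mean was 0.0977 CPM in SRSF1KO and 0.317 CPM in WT, and without WT replicate 1 the WT mean was 0.0397 CPM, below both SRSF1KO libraries at 0.0555 and 0.14 CPM, so the direction turned on that library. The exact two-sided permutation p of the difference in mean CPM was 1.

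**Figure D2:**
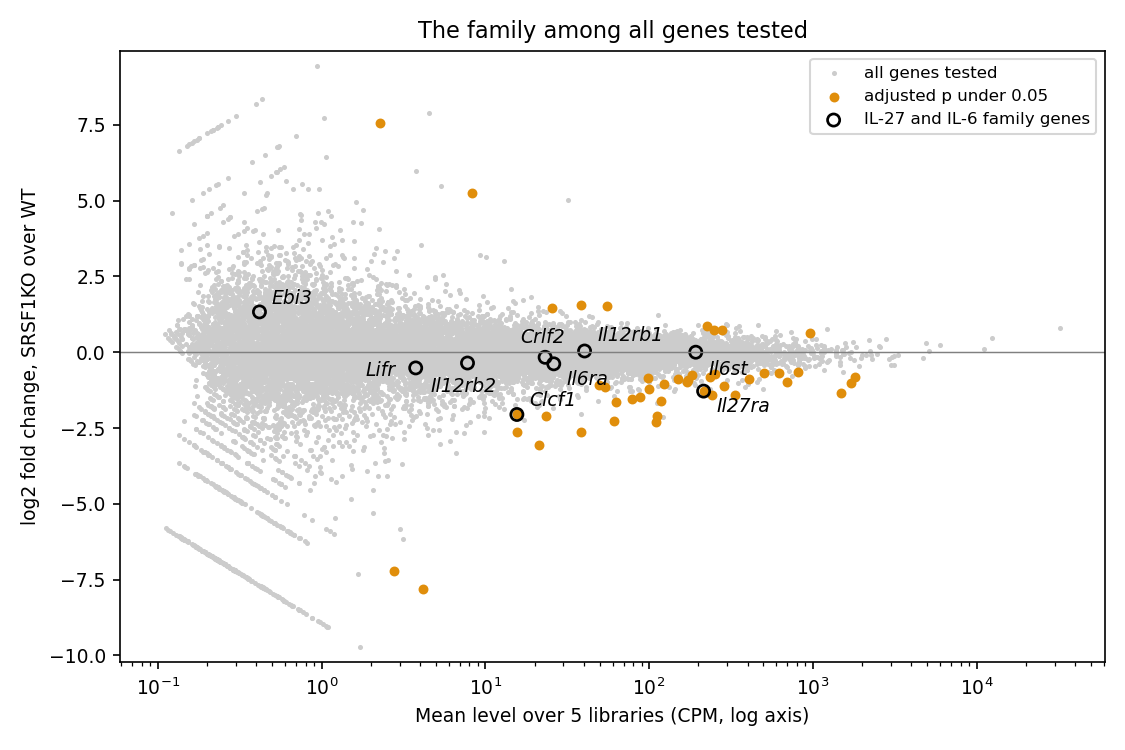
Log2 fold change of SRSF1KO over WT (y axis) against the mean level over the 5 libraries in CPM (x axis, log scale) for all genes tested (grey), called genes (orange) and the 9 family genes tested (circled). Il27ra at −1.28 and Clcf1 at −2.05 are the circled genes among the orange points, and Il6st lies at 0.00.

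Other genes of the pathway were read from 5 lists with 60 genes in all, of which 46 were tested. With edgeR 0 of the 46 were called lower and 0 higher. At an unadjusted p under 0.05, 11 were lower and 4 higher. DESeq2 called 5 lower and 2 higher. Over all genes those shares were 8.45% and 5.90% at the unadjusted level and 3.87% and 2.34% with DESeq2. The median log2 fold change of the 46 was −0.27, with 31 negative, against −0.01 and 50.6% negative over all genes tested.

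Other ligand genes of the family, listed together with Tslp, the gene of the ligand of CRLF2, were scarce or absent. Of 13, 4 were tested, 0 passed, and their median log2 fold change was −0.96. Osm, the gene of oncostatin M, was the highest of them, at 11.8 and 6.66 CPM in SRSF1KO and 12.3, 11.7 and 11 CPM in WT (log2 fold change −0.34 ± 0.32 SE, edgeR adjusted p = 0.720). Il12b, the gene of the subunit shared by IL-12 and IL-23, had 7 and 1 counts in SRSF1KO and 20, 33 and 9 in WT (edgeR adjusted p = 0.552). Cntf, the gene of ciliary neurotrophic factor, had 3 and 9 counts in SRSF1KO and 17, 11 and 8 in WT (edgeR adjusted p = 0.851). Il27, which encodes the partner of EBI3 in IL-27, had 3 counts, all in WT replicate 2. Il6 had 0 counts in all 5 libraries, where 3 counts would stand for 0.0779 to 0.0839 CPM.

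Of 7 further receptor genes, Il7r among them, 3 were tested and 0 passed, with a median log2 fold change of −0.18. Il11ra1, the gene of the IL-11 receptor α chain, stood at 6.46 and 6.91 CPM in SRSF1KO, below the WT libraries at 14.2, 10.4 and 8.65 CPM, with a log2 fold change of −0.73 ± 0.33 (SE, edgeR adjusted p = 0.368). Il31ra, a receptor chain for IL-31, had 2 and 22 counts in SRSF1KO and 35, 6 and 2 in WT (edgeR adjusted p = 0.984). Cntfr, the binding chain for CLCF1, had 1 count over all libraries, in WT replicate 2, and Osmr had 0 in each.

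All 8 kinase and STAT genes were tested and 0 passed with edgeR, with a median log2 fold change of −0.10. Jak2, a kinase used by gp130 and IL-12 receptors, stood at 24.9 and 22.4 CPM in SRSF1KO and 34.8, 50.3 and 33.9 CPM in WT, with no overlap (log2 fold change −0.75 ± 0.23 SE, edgeR adjusted p = 0.218, DESeq2 adjusted p = 0.0450). Jak1, the main kinase of gp130, stood at 841.9 and 902.9 CPM in SRSF1KO and 975.2, 1014.6 and 1034.0 CPM in WT (−0.21 ± 0.08, SE, edgeR adjusted p = 0.318). Stat3, chosen after its values were seen as the STAT of IL-6, overlapped between groups, at 316.0 and 287.0 CPM in SRSF1KO and 238.5, 248.5 and 289.4 CPM in WT.

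The 10 genes of inhibitors had a median log2 fold change of 0.02, and 0 passed with edgeR. Socs1, which blocks JAK kinases, stood at 212.3 and 172.0 CPM in SRSF1KO, above all WT libraries at 105.8, 134.6 and 148.0 CPM. Its log2 fold change was 0.57 ± 0.16 (SE, edgeR adjusted p = 0.194, DESeq2 adjusted p = 0.0194). Socs3, the inhibitor that binds gp130 itself, stood at 19.6 and 20.0 CPM in SRSF1KO and 20.5, 19.5 and 20.5 CPM in WT, and is named after its values were seen. The phosphatase genes Ptpn2 and Ptpn6 stood apart between groups in opposite directions, at 0.38 ± 0.12 and −0.36 ± 0.11 on the log2 scale (SE, edgeR adjusted p = 0.225 for each).

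Of 23 genes listed as targets of STATs in T cells, 22 were tested and 0 passed with edgeR, while 7 were lower and 2 higher at an unadjusted p under 0.05. Their median log2 fold change was −0.42. Bcl3, an atypical IκB protein, stood at 2.61 and 3.39 CPM in SRSF1KO, against 8.61, 10.3 and 13.6 CPM in WT (log2 fold change −1.85 ± 0.36 SE, edgeR adjusted p = 0.101, DESeq2 adjusted p = 0.00037). Myc, a growth-promoting transcription factor, stood at 46.6 and 71.2 CPM in SRSF1KO, under the WT libraries at 96.8, 104.3 and 90.0 CPM (−0.72 ± 0.19, SE, edgeR adjusted p = 0.169). Ifngr1, a chain of the interferon γ receptor, stood at 517.8 and 398.6 CPM in SRSF1KO, above WT at 297.4, 299.4 and 365.8 CPM (0.51 ± 0.15, SE, edgeR adjusted p = 0.186). DESeq2 called Bcl3, Myc and Irf1 lower and Ifngr1 higher, Irf1 being named after its values were seen. Many of these targets also respond to interferons or to T cell receptor signals.

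**Figure D3:**
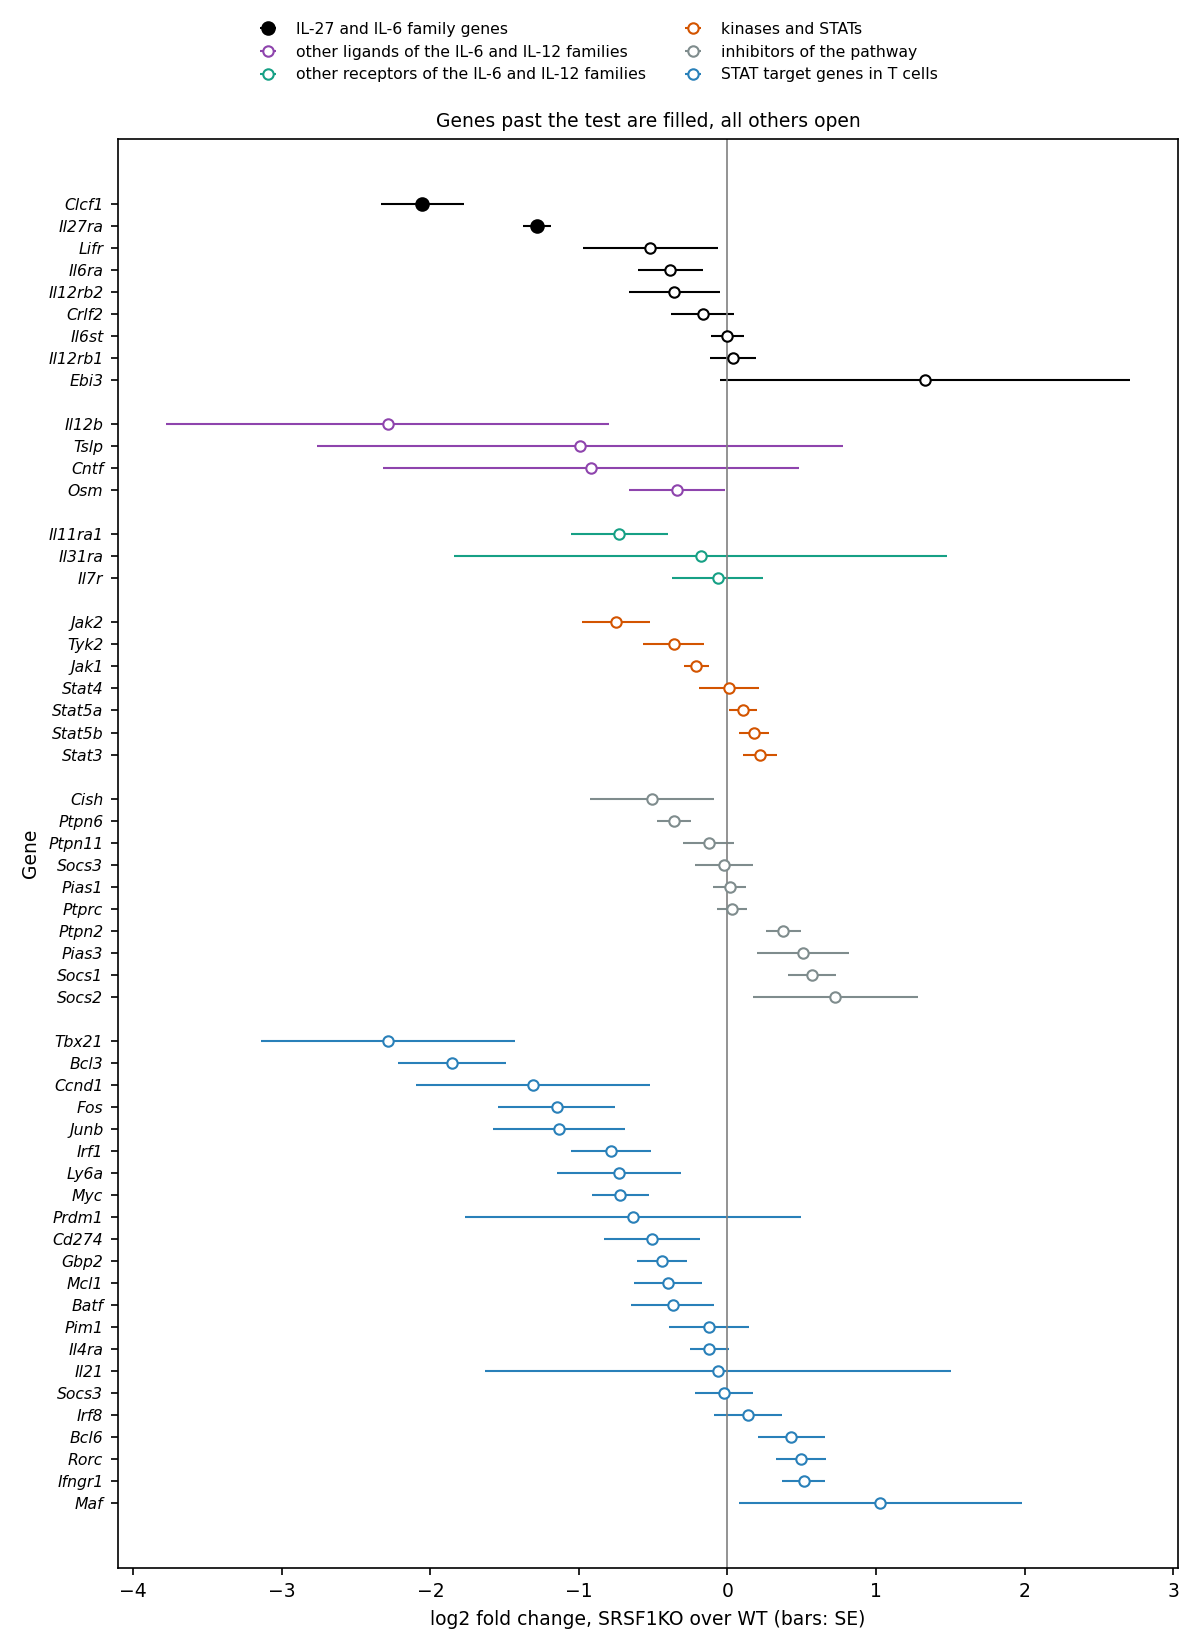
Log2 fold change of SRSF1KO over WT with its SE (x axis) for the 9 family genes and tested genes of 5 pathway lists (y axis, 1 colour per list, sorted within each). Clcf1 and Il27ra are the filled points, past the edgeR test, and all pathway genes shown are open.

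Markers of other cell types were read beside these values, since Clcf1, Lif and Il27ra can be expressed outside the sorted cells. All 7 regulatory T cell markers were tested and 0 passed with edgeR, while DESeq2 called 2 lower, Tnfrsf9 (adjusted p = 0.000923) and Tnfrsf18 (adjusted p = 0.0167). The sum of the 7 was 296.4 to 317.5 CPM in SRSF1KO and 350.4 to 379.6 CPM in WT, with none of the genes at 0. Without Ikzf2, the highest of them, it was 130.3 to 139.9 CPM in SRSF1KO and 203.9 to 243.4 CPM in WT, and Foxp3, which defines the type, stood at 6.96 and 2.18 CPM in SRSF1KO and 10.5, 8.77 and 6.93 CPM in WT. The 8 stromal and endothelial markers summed to 179.2 to 202.6 CPM in SRSF1KO and 157.7 to 198.2 CPM in WT, nearly all from Pecam1. The other 7 summed to 0.832 to 1.90 CPM in SRSF1KO and 4.86 to 6.35 CPM in WT, and 4 of them, Vwf, Col3a1, Pdgfra and Kdr, were at 0 in at least 1 library. Most of that difference was Pdgfrb, named after its values were seen, at 0.0832 and 0.196 CPM in SRSF1KO and 2.96, 3.24 and 3.77 CPM in WT (edgeR adjusted p = 0.066, DESeq2 adjusted p = 4.72e-06). The part of these differences in the values of Il27ra and Clcf1 was not tested.

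The 9 dendritic cell markers summed to 233.0 to 366.9 CPM in SRSF1KO and 545.9 to 632.5 CPM in WT. Most of it was Ccr7, at 220.2 and 350.2 CPM in SRSF1KO and 534.7, 617.7 and 556.5 CPM in WT. Its adjusted p was 0.0964 with edgeR, 7.5e-06 with DESeq2 and 0.0458 with limma-voom. Without Ccr7, which maturing thymocytes also express, the sums overlapped, at 12.8 to 16.6 CPM in SRSF1KO and 11.2 to 14.8 CPM in WT. Batf3, Itgax, Clec9a and Xcr1 were at 0 in at least 1 library. That sum joins genes that differed in either direction. DESeq2 called 2 of the 9 lower, Ccr7 and Xcr1, and 0 higher. Xcr1, named after its values were seen, stood at 0 and 0.028 CPM in SRSF1KO and 1.32, 1.57 and 0.753 CPM in WT (edgeR adjusted p = 0.136, DESeq2 adjusted p = 0.0137). Siglech and Clec9a, also named after their values were seen, were higher in both SRSF1KO libraries than in every WT library. Sums overlapped also for 8 B cell markers (563.6 to 765.8 CPM in SRSF1KO, 496.1 to 570.3 in WT, most of it Ighm), 9 macrophage and monocyte markers (111.4 to 127.5 CPM in SRSF1KO, 94.1 to 121.6 in WT) and 9 thymic epithelial markers (35.8 to 51.2 CPM in SRSF1KO, 44.2 to 47.7 in WT). The defining epithelial genes Foxn1, Krt5, Krt14 and Aire were at 0 in at least 1 library. For 10 markers of NK, NKT and γδ T cells the sums were 74.8 to 92.1 CPM in SRSF1KO and 49.2 to 75.2 CPM in WT, led by Trdc, with Eomes and Ncr1 at 0 in at least 1 library. These sums overlapped narrowly. Without Trdc they overlapped too, at 30.9 to 35.2 CPM in SRSF1KO and 21.7 to 43.1 CPM in WT. Of the 8 tested, 0 passed with edgeR. DESeq2 called Trdc higher (adjusted p = 0.00666) and Klrd1 lower (adjusted p = 0.0157). Klrd1, named after its values were seen, stood at 2.80 and 1.06 CPM in SRSF1KO and 6.92, 7.25 and 6.86 CPM in WT.

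The genes whose pattern over the 5 libraries was most like that of Il27ra were Dlg4, Ly6c2 and Rpl22l1, with root-mean-square differences of centred log2 CPM of 0.070, 0.0888 and 0.0895 among 9214 genes compared. Dlg4 stood at 7.93 and 7.83 CPM in SRSF1KO and 18.5, 20.2 and 17.2 CPM in WT, and Rpl22l1 at 29.7 and 32.7 CPM in SRSF1KO and 65.0, 74.8 and 68.8 CPM in WT. Reads of Ly6c2 can be split with its close paralog Ly6c1, so its value is less certain. Rpl22l1, a paralog of a ribosomal protein gene, passed the test (edgeR adjusted p = 0.0483), whereas Dlg4 and Ly6c2 did not (0.0971 and 0.118). For Clcf1 they were Pced1a (0.0643), Appl2 (0.189) and Gbp10 (0.201), which did not pass. Pced1a stood at 6.19 and 5.46 CPM in SRSF1KO and 27.8, 19.5 and 19.6 CPM in WT, with the same high WT replicate 1 as Clcf1.

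**Figure D4:**
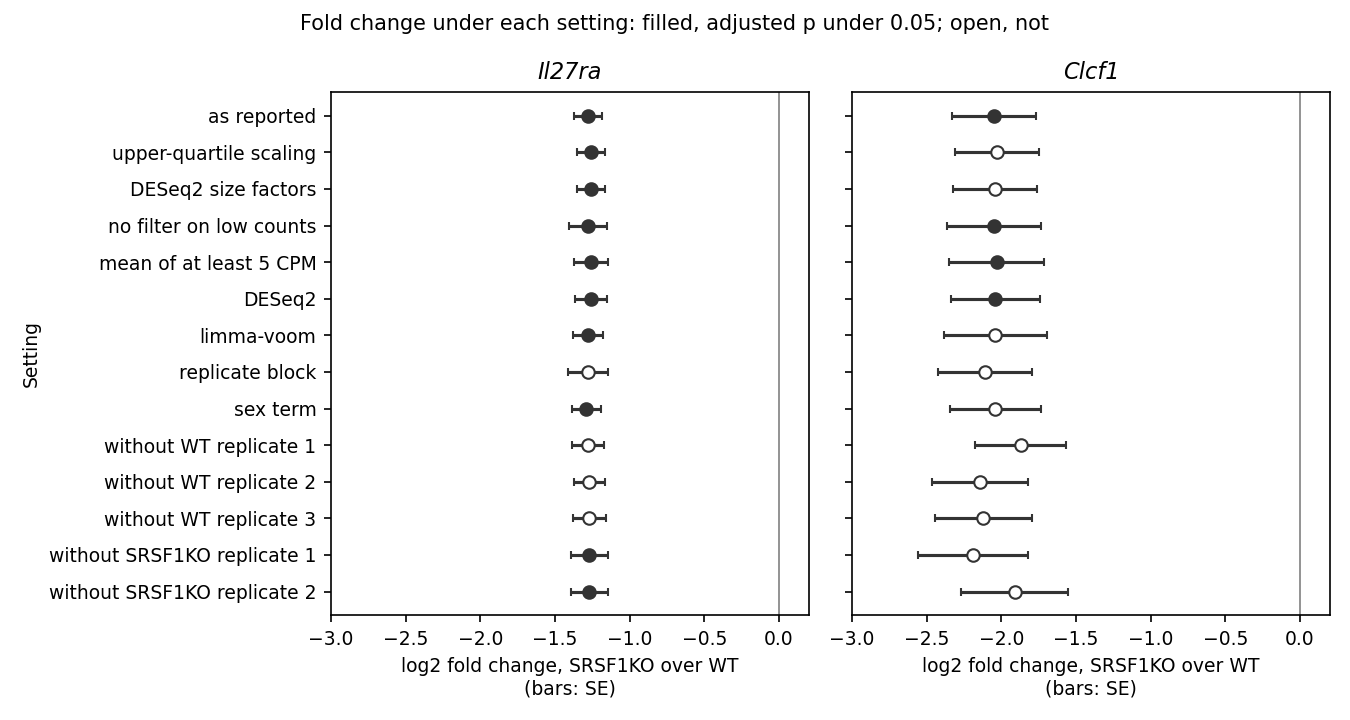
Log2 fold change of SRSF1KO over WT with its SE (x axis) for Il27ra and Clcf1 as reported and under each of 13 other settings (y axis), filled where the adjusted p was under 0.05. Il27ra stays between −1.29 and −1.26 and Clcf1 between −2.19 and −1.87, while 4 of the 13 points of Il27ra and 10 of the 13 of Clcf1 are open.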

How the data were processed

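The authors deposited raw counts of reads per gene for 5 Smart-seq2 RNA-seq libraries, with no normalisation. Per the submitters' processing notes the genome build was mm10 and the tools included HTSeq 0.6.1, Bowtie2 2.1.0 and cutadapt 1.17, but which of them served the RNA-seq reads, and the annotation and strand setting, is not given in the sources used here. CLIP-seq samples (4) were not used here.

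IDs were matched to symbols in a names table (53620 matched, 95 did not), and coordinates came from RefSeq's table of GRCm38.p6. The main test was edgeR 4.0.16 in R 4.3.3 (TMM, filterByExpr, robust glmQLFit, glmQLFTest, group as the only term), with Benjamini-Hochberg adjustment over all genes tested and calls at 0.05. SEs are the log2 fold change over the root of F. DESeq2 1.42.0 and limma 3.58.1 served as alternatives, and the scripts were tested on simulated data. Within-pattern differences and likeness used log2 CPM with a prior count of 2.

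Named genes were all 10 family genes, Srsf1, in each pathway list the called genes or otherwise the 3 with the smallest p, and the 3 genes most like each called member, of at least 5 CPM. A gene that this rule names is not reported here. The family and all lists were chosen with earlier results of these data known.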

Additional observations from a re-analysis of the deposited data

How the results depend on the processing

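The direction of Il27ra and Clcf1 held in all 13 alternatives, with adjusted p between 9.3e-30 and 0.314 for Il27ra and between 6.05e-09 and 0.314 for Clcf1 (both lowest with DESeq2). Against 2 members called lower, the count was 1 with upper-quartile scaling, DESeq2's size factors, limma-voom or the sex term, Il27ra in each, and between 0 and 1 with 1 library left out (0 without any WT library). No member was called higher in any alternative. Against 0 pathway genes called lower and 0 higher, there were 2 and 2 without a filter on low counts, 5 and 2 with DESeq2, and 1 lower with a 5 CPM minimum. Over all genes the calls were 37 lower and 9 higher with edgeR, 633 and 383 with DESeq2, 346 and 198 without a filter, 230 and 142 with the 5 CPM minimum, 62 and 21 with limma-voom, 7 and 3 with DESeq2's size factors, 5 and 0 with the sex term, 67 and 21 without SRSF1KO replicate 2, 8 and 3 without SRSF1KO replicate 1, and 0 and 0 without any single WT library. The near-zero log2 fold change of Il6st was positive at 0.0223 with upper-quartile scaling, 0.0172 with DESeq2's size factors, 0.0194 with the 5 CPM minimum, 0.0171 with DESeq2, 0.00631 with no filter, 0.00355 with the sex term, and between −0.0848 and 0.0999 with 1 library left out, never past the test. Crlf2 lay between −0.35 and 0.0106 with 1 library left out, positive without SRSF1KO replicate 1. The cause of these shifts was not tested. Ebi3 and Lifr gave no value at a mean of at least 5 CPM.

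With the replicate number as a block, 0 members were called lower and 0 genes of all tested, with 1640 at an unadjusted p under 0.05, and Il6st was at 0.0545. The labels do not say that the numbers pair the libraries. Deviations from group means of same-numbered libraries correlated at −0.0249 and 0.0345. With 2 SRSF1KO libraries these deviations mirror each other, so the correlations cannot show whether the libraries are paired. Depth limits Lif, Ebi3 and the scarce ligands, where the counts could not show a difference, and sampling intervals would cover counting error only.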
